A study of Mus musculus with 6 samples.

Results

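The genes of the mitochondrial protein import machinery were compared between the brains of MitoPark mice and littermate controls. The members were the rows whose symbol begins with Timm or Tomm followed by a digit, together with Samm50, Mtx1, Mtx2, Pam16, Dnajc19, Grpel1, Pmpca and Pmpcb. Of 24054 rows in the expression table, 33 carried such a symbol and 31 had a mean CPM (counts scaled to a common library size) above 1 over the 6 mice. Of the 31, 0 passed the cutoffs for a difference between the groups, near the share over all 14568 genes tested (0.577%). The 95% interval of the fold change lay within 1.5-fold in either direction for 31 of 31 members, beside 66.5% of all genes tested, not matched for level.

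Nearly all mitochondrial proteins are encoded in the nucleus, made in the cytosol and imported. They enter through the TOM complex of the outer membrane. Barrel-shaped outer membrane proteins are then inserted by the SAM complex, carrier proteins are guided across the intermembrane space by the small TIM chaperones to the TIM22 complex, and proteins with a cleavable presequence pass the TIM23 complex, are pulled into the matrix by the import motor and are trimmed by the matrix processing peptidase. Import through TIM23 depends on the membrane potential that the respiratory chain maintains.

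RNA from 3 MitoParks and 3 littermate controls was sequenced, and the mice were 16 to 17 weeks old by the sample labels. Tfam encodes the mitochondrial transcription factor A. In MitoParks (Dat +/Cre, Tfam LoxP/LoxP) it was deleted by a Cre driven from the dopamine transporter locus, and so in cells that express that transporter. Littermate controls (Dat +/+, Tfam +/LoxP) carried a floxed Tfam allele without Cre. By the study's methods, such controls came from MitoPark litters or litters of the parental strain. Littermate is the study's term, and the labels give no litters. By the labels, controls were C57BL/6, the MitoParks were transgenic mice derived from that strain, and none was treated. The labels give brain tissue as the source, and the study's methods give the dissected substantia nigra (SN), a region in which dopaminergic neurons are a minority of the cells. In such bulk RNA, fewer cells of a type and less RNA per cell cannot be told apart.

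The expected counts of a mouse summed to between 8140777 and 10528602. Levels are given as CPM after TMM scaling, a library size correction, and errors are SD over 3 mice unless another is named. Tfam was at 43.4 ± 2.71 CPM in controls and 33.0 ± 0.284 CPM in MitoParks, without overlap between the groups (log2 fold change -0.40, SE 0.11, unadjusted p = 0.00565 and adjusted p = 0.999, edgeR quasi-likelihood test). The groups also differed in the number of floxed Tfam alleles. Deletion by Cre, the floxed allele itself and a loss of cells therefore cannot be told apart for Tfam. All 9 dopaminergic neuron markers had counts in both groups, although Pitx3 had only 0, 5 and 4 counts in MitoParks 1 to 3. Summed levels of the 9 were 434 to 1415 CPM in controls and 293 to 531 CPM in MitoParks. Each marker had a negative log2 fold change, with a median of -0.67, and 1 of the 9 passed an unadjusted p of 0.05. That gene was the dopamine transporter Slc6a3 (log2 fold change -2.30, SE 0.70, unadjusted p = 0.00895 and adjusted p = 0.999), the locus that carries the Cre allele in MitoParks, so that the allele and a loss of cells cannot be told apart. Littermate control 3 stood apart from the other controls, with the summed dopaminergic markers at 1415 CPM against 434 and 517 CPM and the summed oligodendrocyte markers at 16970 CPM against 6384 and 8972 CPM. Without control 3, the Slc6a3 log2 fold change was -0.97. For the import genes, leaving out control 3 gave a median log2 fold change of -0.02. The count with an unadjusted p under 0.05 in edgeR was then 0 of 31, beside 374 of 14609 genes, a share at which few or no members would be counted. Among the lists for neurons, astrocytes, oligodendrocytes, microglia, endothelium, striatum, choroid plexus and red cells, 1 gene passed an unadjusted p of 0.05, the microglial C1qa (log2 fold change 0.34, edgeR unadjusted p = 0.0311). Whether any of these cell type differences had a part in the import gene values was not tested.

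Promoter sequences show what some members share apart from their symbols. A window from 250 bases before to 50 bases after the transcription start was found in RefSeq (GRCm38.p6) for 28 of the 31 members, and not for Timm21, Tomm7 and Tomm40l. The letters CCGGAAGT, read on either strand and known as a binding motif of GABP, an activator of many nuclear genes for mitochondrial proteins, were present in 6 of the 28 (21.4%; 4.31% of 27025 genes with a window). The 6 were Mtx2, Pmpcb, Timm23, Tomm70a, Timm10 and Timm10b. In the first 4 of them the motif lay before the start, and the 100 bases up to that start are printed 5′ to 3′ on the gene's strand, with the motif in capitals.

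Mtx2 (chr2:74825712-74825811, plus strand): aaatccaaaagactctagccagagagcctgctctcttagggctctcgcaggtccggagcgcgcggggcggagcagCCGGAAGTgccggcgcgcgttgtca
Pmpcb (chr5:21737060-21737159, plus strand): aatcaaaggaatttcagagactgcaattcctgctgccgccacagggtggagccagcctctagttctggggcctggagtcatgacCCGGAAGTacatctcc
Timm23 (chr14:32201892-32201991, minus strand): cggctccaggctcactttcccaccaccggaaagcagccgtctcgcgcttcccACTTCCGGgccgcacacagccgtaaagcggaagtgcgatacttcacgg
Tomm70a (chr16:57121614-57121713, plus strand): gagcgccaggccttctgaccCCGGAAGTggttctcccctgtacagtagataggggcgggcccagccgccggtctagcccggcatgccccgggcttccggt

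The motif began 25 bases before the start in Mtx2, 16 in Pmpcb, 48 in Timm23, where it reads in the reverse orientation, and 80 in Tomm70a. In Timm10 and Timm10b it lay after the start, as did a second copy in Mtx2. The NRF1 motif CGCATGCG was present in Timm13 alone among the 28 (2.07% of all genes), the YY1 motif AAGATGGC in Mtx1 and Timm50 (3.19% of all genes), and the ATF4 motif TGATGCAA in 0 of 28 (1.03% of all genes). Members' windows were richer in G and C, with a median of 58.3% against 52.7% over all 32851 windows, and the motifs differ in G and C content as well. The part of base composition in the share of CCGGAAGT was not tested. Members had also passed a level threshold, whereas genes with a window were counted at any level. The share among the genes tested was not computed. These matches are letters in a window, and no binding was measured.

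Between the groups, 0 of the 31 members were called as differentially expressed genes (DEGs, unadjusted p under 0.05 and a fold change above 1.5), beside 84 of 14568 genes tested (0.577%). At an unadjusted p under 0.05 without the fold cutoff, the count was 0 of 31 in edgeR's quasi-likelihood test and 0 of 31 in DESeq2's Wald test. Over all 14568 genes it was 161 (1.11%) in edgeR and 96 in DESeq2. Groups that did not overlap were found for 0 of 31 members, beside 686 of all genes (4.71%). A count of 0 among 31 genes is near each of these shares and is not a result about the members. Of the 31, 14 were higher and 17 lower in MitoParks, with a median log2 fold change of -0.0023 beside -0.0047 over all genes tested. The smallest unadjusted p was 0.203, and the adjusted p was 0.999 for each.

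The fold changes were also small. They ran from -0.20 for Timm50 to 0.07 for Pmpca on the log2 scale, and 25 of 31 (80.6%) were under 0.1 in size, beside 56.1% of all genes tested. The difference of the group means was smaller than the larger of both SDs in 27 members. How far these values can be trusted follows from their intervals: the 95% interval lay within 1.5-fold in either direction for 31 of 31 members (66.5% of all genes tested), within 1.4-fold for 26 (55.1%), within 1.3-fold for 20 (34.0%) and within 1.2-fold for 6 (4.12%). Changes smaller than these were therefore not bounded. The shares over all genes tested, here and for fold changes under 0.1, were not matched to the members' range of levels, on which such widths depend. Members were measured at 5.17 to 450 CPM and from 42 to 5003 counts per mouse, with a median within-group CV of 8.48% beside 11.8% for genes tested in the same range of levels.

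**Figure D1:**
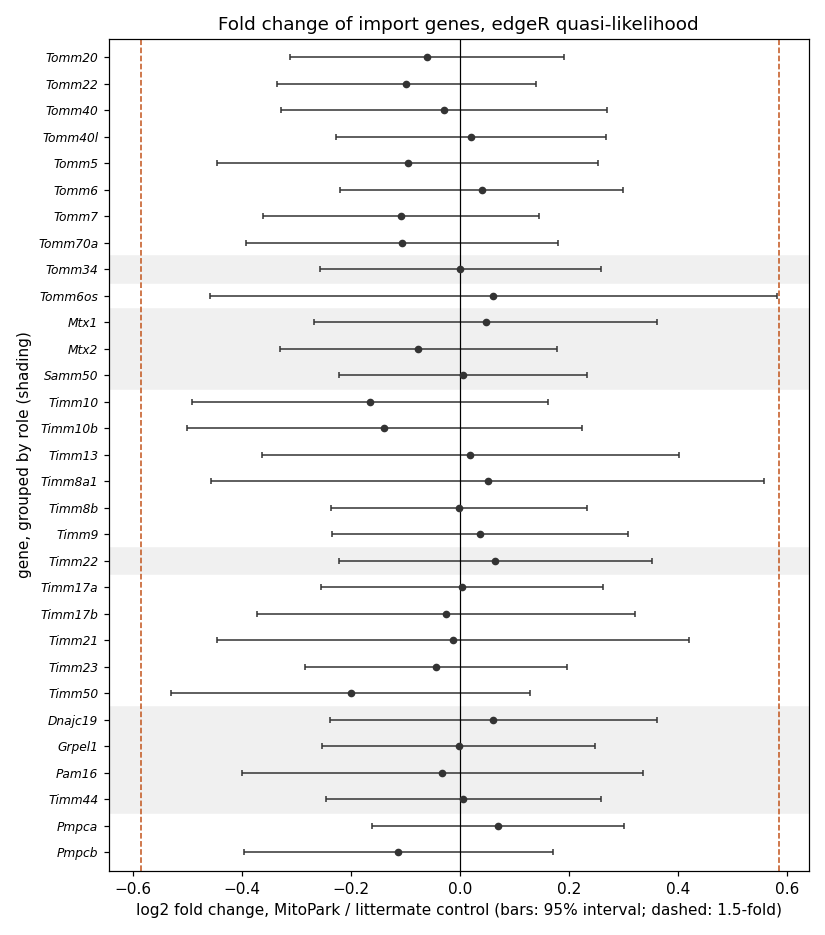
Log2 fold change of each of the 31 import genes, MitoPark over littermate control (x axis), from the edgeR quasi-likelihood fit, with genes on the y axis grouped by role in shaded bands. Points are estimates from 3 against 3 mice and bars are 95% intervals. Each of the 31 bars crosses 0 and lies inside the dashed lines at 1.5-fold, and the widest belong to Tomm6os and Timm8a1.

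The TOM complex had 8 members, of which 2 were higher and 6 lower in MitoParks, with a median log2 fold change of -0.08 and a smallest unadjusted p of 0.361 (edgeR). Their CPM summed to 995, 1038 and 972 in controls 1 to 3 and 994, 1003 and 882 in MitoParks 1 to 3, with MitoPark 3 below all other mice. Genes with the highest CPM weigh most in this sum. From the mean of the 6 mice, the median gene of the complex deviated by -0.01, 0.08 and -0.01 on the log2 scale in controls 1 to 3. In MitoParks 1 to 3 it deviated by 0.07, -0.09 and -0.09, so that MitoParks 2 and 3 were alike by this measure. Without MitoPark 3 the median log2 fold change of the complex was -0.01 (3 higher, 5 lower), and without control 2 it was -0.03. It was -0.08 without control 1, -0.10 without control 3, -0.09 without MitoPark 1 and -0.06 without MitoPark 2. Tomm20, the receptor that first binds presequences, had the highest CPM of the members, at 456, 475 and 448 CPM in littermate controls 1 to 3 and 453, 470.1 and 399.6 CPM in MitoParks 1 to 3. It made up 25.2% ± 0.396 of the members' summed CPM in controls and 24.7% ± 0.938 in MitoParks. Its log2 fold change was -0.06 (95% interval -0.31 to 0.19), and the MitoParks reached from below the controls into their range.

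Tomm70a, the receptor that takes carrier proteins from cytosolic chaperones, was at 229, 231 and 216 CPM in littermate controls 1 to 3 and 209.8, 242 and 176 CPM in MitoParks 1 to 3. Here MitoPark 2 was the highest and MitoPark 3 the lowest of the 6 mice. The SD was 33.0 CPM in MitoParks against 8.08 CPM in controls (log2 fold change -0.11, 95% interval -0.39 to 0.18). Tomm22, the central receptor that holds the complex together, was at 55.7, 56.6 and 61.8 CPM in the controls and 56.7, 52.4 and 53.6 CPM in the MitoParks (log2 fold change -0.10). MitoPark 1 lay within the control range and the other two MitoParks lay below it.

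Tomm40 forms the pore. It was at 58.6, 52.8 and 44.2 CPM in the controls and 54.6, 47.3 and 50.6 CPM in the MitoParks, so that the control values spanned the MitoPark values (log2 fold change -0.03). Its paralogue Tomm40l was at 56.2 ± 3.07 CPM in controls and 57.0 ± 4.09 CPM in MitoParks, and the ratio of their CPM within a library, not corrected for length, was 0.927 ± 0.158 in controls and 0.893 ± 0.0352 in MitoParks. The small subunits Tomm5, Tomm6 and Tomm7, which stabilise the pore, had log2 fold changes of -0.10, 0.04 and -0.11. Tomm5 was at 27.2 ± 4.01 CPM in controls and 25.5 ± 3.78 CPM in MitoParks, and Tomm6 at 74.8 ± 5.07 CPM in controls and 76.9 ± 7.94 CPM in MitoParks. Tomm7 was at 46.1, 51.8 and 46.8 CPM in the controls and 47.8, 43.7 and 42.9 CPM in the MitoParks, with MitoParks 2 and 3 below the controls and MitoPark 1 inside their range. Tomm20l, a relative of Tomm20, had 1 count or none in each mouse and, with a mean of 0.0545 CPM, did not reach the level threshold.

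Tomm34, a cytosolic cochaperone of precursor proteins, was at 70.7 ± 6.14 CPM in controls and 70.7 ± 5.77 CPM in MitoParks, with a log2 fold change of 0.00. Tomm6os entered by its symbol, although it is a noncoding RNA antisense to Tomm6 and encodes no import protein. With a mean of 5.17 CPM it was also the member nearest above the level threshold. It was at 5.35, 5.32 and 4.5 CPM in the controls and 5.24, 4.25 and 6.35 CPM in the MitoParks, and the ratio of its CPM to that of Tomm6 was 0.0679 ± 0.0086 in controls and 0.0683 ± 0.00791 in MitoParks. The sources do not state that counting used the strand, so reads of Tomm6 and of its antisense RNA cannot be told apart, and expected counts of both were not whole in all 6 mice.

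**Figure D2:**
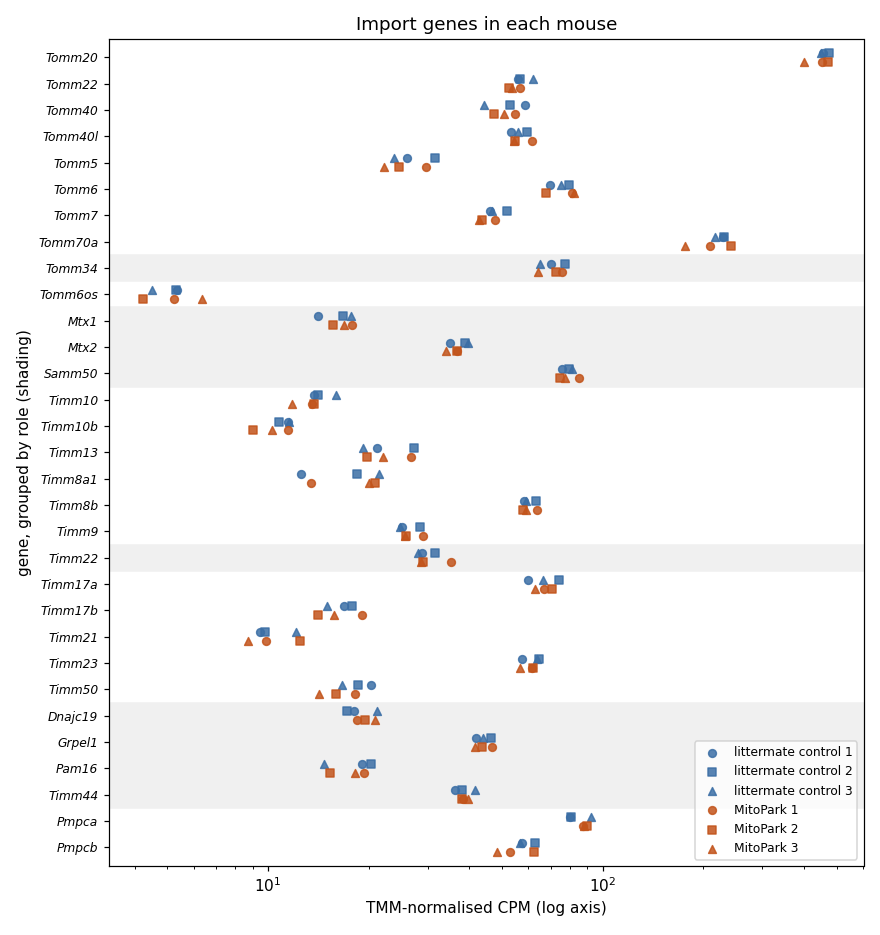
TMM-normalised CPM of each import gene in each mouse (x axis, log scale), with the 31 genes on the y axis grouped by role in shaded bands. Blue symbols are littermate controls 1 to 3 and red symbols MitoParks 1 to 3, 1 symbol per mouse. The red and blue symbols overlap for each gene, from Tomm6os near 5 CPM to Tomm20 above 399 CPM.

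The SAM complex was represented by 3 genes, 2 higher and 1 lower, with a median log2 fold change of 0.01. Samm50, the barrel protein that carries out the insertion, was at 75.4, 79.6 and 80.8 CPM in littermate controls 1 to 3 and 84.8, 74.7 and 77.3 CPM in MitoParks 1 to 3. The control values lay inside the range of the MitoParks (log2 fold change 0.01, 95% interval -0.22 to 0.23). The metaxins Mtx1 and Mtx2 form its cytosolic face, and they were at 16.2 ± 1.85 CPM in controls and 16.8 ± 1.07 CPM in MitoParks for Mtx1 and 37.8 ± 2.4 CPM in controls and 35.9 ± 1.51 CPM in MitoParks for Mtx2. The ratio of Mtx1 to Mtx2 was 0.428 ± 0.0224 in controls and 0.469 ± 0.0374 in MitoParks (exact permutation test, two-sided, p = 0.3, adjusted p = 1.0 over 11 ratios).

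Of the 6 small TIM chaperones that passed the level threshold, 3 were higher and 3 lower, with a median log2 fold change of 0.01. They work as ring-shaped assemblies, Timm9 with Timm10 and Timm8 proteins with Timm13, that shield hydrophobic precursors in the intermembrane space. Timm10 was at 13.7, 14.2 and 15.9 CPM in littermate controls 1 to 3 and 13.5, 13.8 and 11.8 CPM in MitoParks 1 to 3. MitoPark 2 lay between controls 1 and 2, MitoPark 1 just below control 1, and MitoPark 3 was the lowest of all mice (log2 fold change -0.16, SE 0.14, 95% interval -0.49 to 0.16, edgeR unadjusted p = 0.285, adjusted p = 0.999). Its partner Timm9 was at 25.2, 28.5 and 24.8 CPM in the controls and 29.0, 25.9 and 25.7 CPM in the MitoParks (log2 fold change 0.04), and the ratio of Timm9 to Timm10 was 1.80 ± 0.23 in controls and 2.07 ± 0.163 in MitoParks. Those ratios overlapped (exact permutation test, two-sided, p = 0.2, adjusted p = 1.0).

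Timm10b, a relative of Timm10 that docks to the TIM22 complex, was at 11.5, 10.8 and 11.5 CPM in the controls and 11.5, 9.0 and 10.3 CPM in the MitoParks. MitoParks 2 and 3 were below the 3 controls, and MitoPark 1 was level with controls 1 and 3 (log2 fold change -0.14, SE 0.16, 95% interval -0.50 to 0.22, edgeR unadjusted p = 0.411, adjusted p = 0.999). Timm8a1, the mouse counterpart of the gene mutated in human deafness-dystonia syndrome, varied most among coding members, at 12.6, 18.4 and 21.4 CPM in the controls and 13.4, 20.8 and 20.1 CPM in the MitoParks. Control 1 and MitoPark 1 were both low, and the within-group CV of 24.1% left a wide interval of -0.46 to 0.56 around a log2 fold change of 0.05.

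Timm8b and Timm13, each a partner in the second type of ring, had log2 fold changes of -0.00 and 0.02. Timm8b was at 60.2 ± 2.68 CPM in controls and 60.1 ± 3.31 CPM in MitoParks. Timm13, at 21.2, 27.3 and 19.3 CPM in the controls and 26.8, 19.8 and 22.1 CPM in the MitoParks, was high in control 2 and MitoPark 1. Timm8a2, a paralogue of Timm8a1, had 0 counts in all 6 mice, which allows a level of up to 0.285 to 0.366 CPM, the worth of 3 counts, and covers counting error only.

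The carrier translocase was represented by its pore, Timm22, at 29.0, 31.5 and 28.1 CPM in littermate controls 1 to 3 and 35.2, 29.0 and 28.6 CPM in MitoParks 1 to 3. MitoPark 1 was the highest of the 6 mice, and the other two MitoParks lay inside the control range (log2 fold change 0.06, SE 0.13, 95% interval -0.22 to 0.35, edgeR unadjusted p = 0.622, adjusted p = 0.999). Without MitoPark 1 the sign turned, at -0.03. Another subunit of that translocase, Timm29, is listed under the older name 1810026J23Rik and so was not a member. It was at 85.2 ± 7.4 CPM in controls and 88.2 ± 9.04 CPM in MitoParks (log2 fold change 0.05, unadjusted p = 0.674 in the edgeR test).

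Of 5 genes of the TIM23 complex, 1 was higher and 4 were lower in MitoParks, with a median log2 fold change of -0.03. Timm50, the receptor that hands presequences from TOM to the channel, had the largest fold change of the 31 with all 6 mice. It was at 20.3, 18.6 and 16.6 CPM in littermate controls 1 to 3 and 18.2, 16.0 and 14.2 CPM in MitoParks 1 to 3. MitoPark 3 was the lowest mouse and control 1 the highest, and MitoPark 1 lay above control 3. The groups were at 18.5 ± 1.83 CPM in controls and 16.1 ± 2.0 CPM in MitoParks (log2 fold change -0.20, SE 0.15, 95% interval -0.53 to 0.13, edgeR unadjusted p = 0.203, adjusted p = 0.999). By an exact permutation test its p was 0.2, two-sided, where 3 mice against 3 cannot go below 0.1. The log2 fold change was -0.12 without MitoPark 3, -0.13 without control 1 and -0.28 without MitoPark 1, and the first of these was smaller than that of Timm10b (-0.14) and the second smaller than that of Timm10 (-0.20) without the same mouse.

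Timm23, the channel itself, was at 57.2, 64.7 and 63.8 CPM in the controls and 61.4, 62.0 and 56.8 CPM in the MitoParks, and the mice of both groups were interleaved (log2 fold change -0.04, 95% interval -0.28 to 0.20). Its partner in the channel comes as 2 paralogues, and the ratio of Timm17a to Timm17b was 4.03 ± 0.436 in controls and 4.16 ± 0.759 in MitoParks. Timm17a was at 66.7 ± 6.95 CPM in controls and 66.9 ± 3.87 CPM in MitoParks and Timm17b at 16.6 ± 1.43 CPM in controls and 16.4 ± 2.54 CPM in MitoParks, with log2 fold changes of 0.00 and -0.03. Timm21, which couples TIM23 to TOM and to the respiratory chain, had the lowest CPM of the coding members, at 9.47, 9.78 and 12.1 CPM in the controls and 9.87, 12.4 and 8.73 CPM in the MitoParks. Control 3 and MitoPark 2 were its high mice.

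The import motor had 2 genes higher and 2 lower, with a median log2 fold change of 0.00. Timm44, the tether of the motor to the channel, was at 36.2, 37.9 and 41.4 CPM in littermate controls 1 to 3 and 38.3, 38.1 and 39.7 CPM in MitoParks 1 to 3 (log2 fold change 0.01). The 3 MitoParks lay inside the control range. The J-domain protein Dnajc19 and its partner Pam16 regulate the motor chaperone. Dnajc19 was at 18.0, 17.2 and 21.1 CPM in the controls and 18.4, 19.5 and 20.9 CPM in the MitoParks (log2 fold change 0.06, SE 0.13, 95% interval -0.24 to 0.36, edgeR unadjusted p = 0.658, adjusted p = 0.999). Control 3 and MitoPark 3 were its highest mice. Pam16 was at 18.1 ± 2.99 CPM in controls and 17.7 ± 2.07 CPM in MitoParks, and the nucleotide exchange factor Grpel1 at 44.0 ± 2.29 CPM in controls and 44.0 ± 2.55 CPM in MitoParks.

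The matrix processing peptidase is a heterodimer of Pmpca and the catalytic subunit Pmpcb, and their differences had opposite signs. Pmpca was at 79.8, 80.3 and 92.6 CPM in littermate controls 1 to 3 and 87.2, 89.8 and 88.2 CPM in MitoParks 1 to 3. Controls 1 and 2 were the lowest mice and control 3 the highest, with the MitoParks between them (log2 fold change 0.07, SE 0.10, 95% interval -0.16 to 0.30, edgeR unadjusted p = 0.516, adjusted p = 0.999). Pmpcb was at 57.2, 62.8 and 56.8 CPM in the controls and 52.8, 62.5 and 48.2 CPM in the MitoParks, with MitoParks 1 and 3 below the controls and MitoPark 2 within their range (log2 fold change -0.11). The ratio of Pmpca to Pmpcb was 1.43 ± 0.179 in controls and 1.64 ± 0.197 in MitoParks (exact permutation test, two-sided, p = 0.2, adjusted p = 1.0 over 11 ratios), and the groups overlapped in each of the 11 ratios.

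The 6 genes whose windows held CCGGAAGT were lower in MitoParks by point estimate, with log2 fold changes between -0.16 and -0.04 and a median of -0.11. This was seen after the values were known and was given no test, and none of the 6 passed the test on its own. Lower point estimates were found for 17 of all 31 members and for 7491 of the 14568 genes tested. Without MitoPark 3, 5 of the 6 remained lower and the median was -0.04.

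To compare levels between genes, CPM was divided by the length of the longest protein-coding transcript in GENCODE M21 (for Tomm6os, of its longest transcript). Per kilobase, Timm8b stood at 116 ± 5.17 CPM in controls, Tomm6 at 99.8 ± 6.76 and Tomm20 at 93.8 ± 2.84. Timm8b lay above Tomm6 by more than either SD, and Tomm6 and Tomm20 differed by less than the SD of Tomm6. These SDs measure the spread between mice and do not cover error in the length used or reads shared between Tomm6 and Tomm6os. A wide step followed, to Timm23 at 52.8 ± 3.47 and Tomm7 at 42.9 ± 2.74, after which Tomm70a, Tomm22, Tomm5 and Pmpcb lay between 37.8 and 36.5 CPM per kilobase and could not be ordered beyond their spread.

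At the low end, Timm17b was at 6.98 ± 0.6, Timm21 at 4.33 ± 0.599 and Timm10b at 3.45 ± 0.119 CPM per kilobase in controls. The log2 mean levels of the 31 members in controls and MitoParks had a Pearson correlation of 0.9985, a description across genes that share libraries and lengths. The assumed length matters for some. With the principal transcript in place of the longest, Timm9 went from 10.2 to 26.4 and Dnajc19 from 7.52 to 28.5 CPM per kilobase in controls, and Tomm5 from 36.8 to 42.5. A principal transcript was found for 26 of the 31 members, and not for Timm10b or Tomm22. The low place of Timm10b therefore rests on its longest transcript alone, and before division by length it lay above Timm21.

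**Figure D3:**
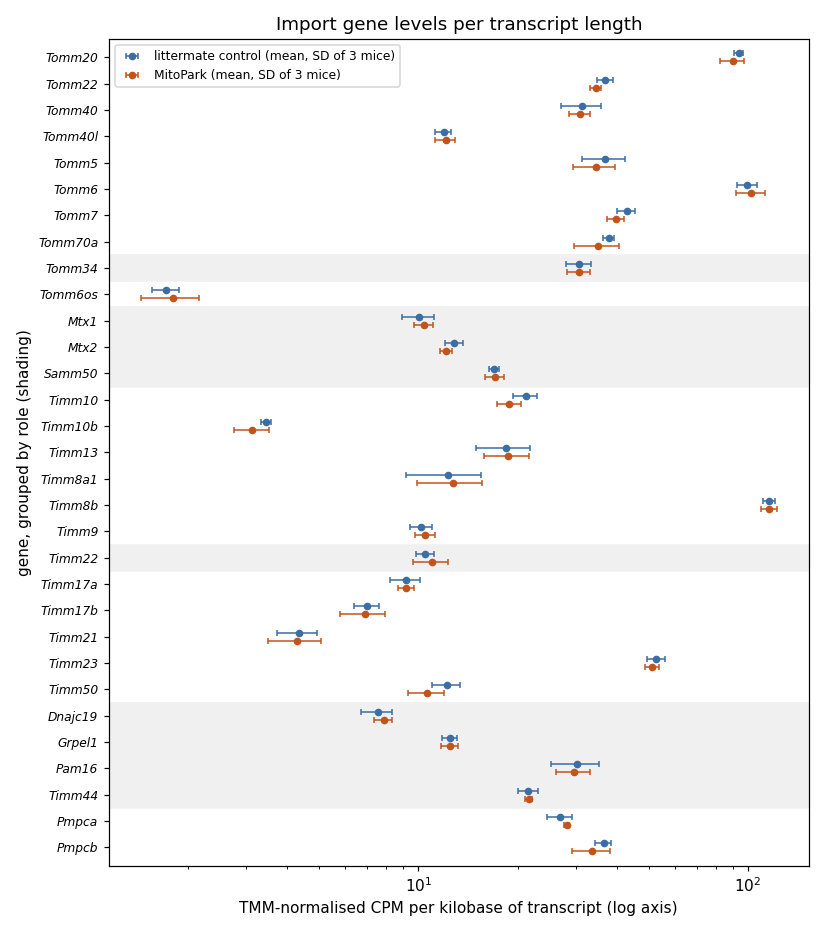
TMM-normalised CPM per kilobase of transcript (x axis, log scale) for the 31 import genes on the y axis, grouped by role in shaded bands. Points are group means and bars are SD of 3 littermate controls (blue) or 3 MitoParks (red). Timm8b, Tomm6 and Tomm20 stand highest, at 93.8 to 116 in controls, and Tomm6os lowest, at 1.72, with both colours close together for each gene.

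The mice differed among themselves in a way that ran across both groups. The members' summed level was 1782, 1899 and 1804 CPM in controls 1 to 3 and 1846, 1827 and 1673 CPM in MitoParks 1 to 3. MitoPark 3 had the lowest sum, and it was the lowest mouse for 12 of the 31 members, while control 2 was the highest for 9 and MitoPark 1 and control 3 for 8 each. Relative to the mean of the 6 mice, the median member deviated by -0.06, 0.07 and -0.00 on the log2 scale in controls 1 to 3 and by 0.08, -0.04 and -0.06 in MitoParks 1 to 3. The medians of both groups thus spread over a similar range.

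The same deviations were computed for 82 nuclear genes of oxidative phosphorylation and 77 of the mitochondrial ribosome, since most of their products are imported. Oxidative phosphorylation genes deviated by -0.15, 0.11 and 0.04 in controls and 0.05, -0.06 and 0.00 in MitoParks, and ribosomal genes by -0.09, 0.10 and -0.00 in controls and 0.04, -0.05 and -0.01 in MitoParks. All 3 sets were low in control 1 and MitoPark 2 and high in control 2 and MitoPark 1. In MitoPark 3 the import genes were lower than the other sets. Neither of the other sets held a gene with an unadjusted p under 0.05 in the edgeR test, beside 1.11% of all genes. At that share few or no genes would be counted in either set. Their median log2 fold changes were -0.01 and -0.01.

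**Figure D4:**
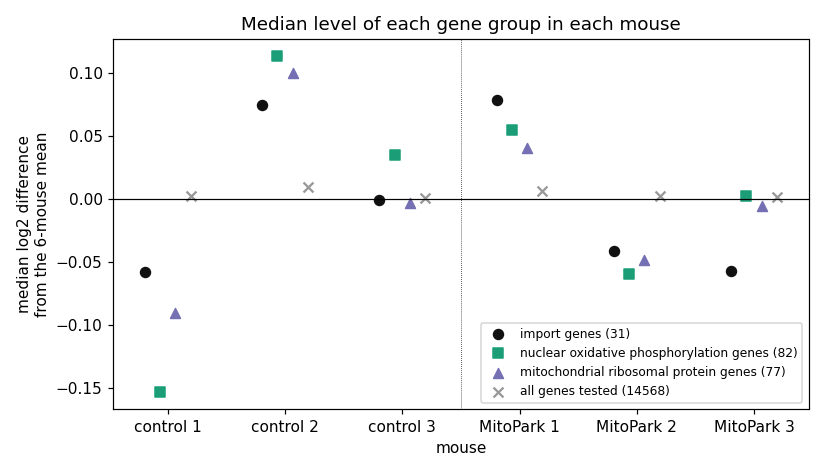
Median log2 difference from the mean of the 6 mice (y axis) for 4 gene groups in each mouse (x axis, controls left and MitoParks right of the dotted line). Each symbol is the median over the 31 import genes, 82 nuclear oxidative phosphorylation genes, 77 mitochondrial ribosomal protein genes or all 14568 genes tested. The 3 mitochondrial sets are high in control 2 and MitoPark 1 and low in control 1 and MitoPark 2, and all genes stay near 0.

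A list of 41 companions of the pathway, taken from outside the members, was measured beside them. All 41 were tested and 0 passed an unadjusted p of 0.05 in either direction in edgeR's test, beside 1.11% of all genes. Of the 41, 10 were higher and 31 lower, beside 7491 lower of the 14568 genes tested. Their median log2 fold change was -0.04, beside -0.0047 over all genes tested. How far these directions rest on a single mouse was not tested. The motor chaperone Hspa9, on which Grpel1, Dnajc19 and Pam16 act, was at 296, 297 and 315 CPM in the controls and 295, 326 and 280.3 CPM in the MitoParks (log2 fold change -0.01). In the intermembrane space, the oxidative folding receptor Chchd4 was at 36.6 ± 3.72 CPM in controls and 36.7 ± 3.28 CPM in MitoParks, and Gfer, which reoxidises it, had the largest positive log2 fold change of the list at 0.17 (unadjusted p = 0.328 in edgeR). The largest negative one was -0.15 for the inner membrane peptidase subunit Immp1l (unadjusted p = 0.321 in edgeR).

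MitoPark 3 was also low for the cytosolic chaperones that deliver precursors to Tomm70a and Tomm20. Hspa8 was at 1919 CPM in MitoPark 3 against 2600.0 and 2882 CPM in MitoParks 1 and 2, and Hsp90aa1 at 1949 CPM against 2197 and 2529 CPM. The matrix chaperonin Hspd1 was at 289.6, 282 and 275 CPM in the controls and 280.5, 312 and 227 CPM in the MitoParks. In each of these 3 genes, which were chosen after their values were seen, MitoPark 3 was the lowest mouse and MitoPark 2 the highest, as it was for Tomm70a. Without MitoPark 3, the median log2 fold change of the members was -0.0011, and 0 of 31 had an unadjusted p under 0.05 in edgeR, beside 97 of 14524 genes.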

How the data were processed

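RNA from 3 MitoParks and 3 littermate controls was sequenced from dUTP (strand-marking) libraries. The authors mapped reads to UCSC transcripts with Bowtie2 2.1.0, ran RSEM 1.2.15 on the alignments and deposited its expected counts as they were, not normalized. The submitters' processing notes name a human build (hg38) for these mouse symbols, and a mouse build and the strand setting of the counting are not given in the sources used here. A second methods paragraph describes another alignment and RPKM values, which the table does not hold. Between 11.9% and 14.1% of values per mouse were not whole, and 10 of the 31 members had such values in at least 1 mouse, so reads shared with other genes make their levels less certain. Table columns named Treat were matched to the MitoPark samples by elimination and number. No column lacked a sample (0).

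From there, expected counts were rounded. The filter, a group mean over 1 CPM in either group, left 14568 genes, which were normalized by TMM and fitted with edgeR 4.0.16 (R 4.3.3) by quasi-likelihood with the 2 groups and no other term, using the 6 mice. Adjustment was by Benjamini-Hochberg across the 14568 genes. SEs were derived from the fold change and its F statistic, and 95% intervals from the same fit. Exact permutation tests were two-sided, on log2 CPM for genes (pseudocount 0.1) and on log2 ratios. Members and gene lists were chosen with earlier results of these data known. Each member's level was described, and full statistics were given for the 3 largest fold changes in each direction and for any member that passed p or had groups without overlap. Total expected counts were 8140777 to 10528602 per mouse. Counting error alone gave the members a CV of 1.53% to 14.4%, and reads carried no molecular identifiers. Labels give separate mice, but not their litters or batches. The p-values therefore set the group difference against the spread between these mice and do not account for litter or batch. Within groups, no pair of mice agreed within sampling noise (chi-square per degree of freedom 9.68 or more). Alternatives were DESeq2 1.42.0, RLE and total count normalization, no filter, a replicate block and leaving out each mouse, and, added after seeing the data, members without Tomm6os and another transcript length. Python 3.11.15, pandas 2.3.3, scipy 1.17.1, numpy 2.4.6 and matplotlib 3.10.9 were used.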

Additional observations from a re-analysis of the deposited data

How the results depend on the processing

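The count of import genes called as DEGs and the count with an unadjusted p under 0.05 were 0 under each alternative run, as was the count of companions at that p. Over all genes tested these fits gave 62 to 219 calls and 96 to 657 genes with such a p, so a 0 among 31 says little. The smallest unadjusted p of any member was 0.0905 (edgeR, without MitoPark 2), and DESeq2 gave 0.32. The median log2 fold change of the members moved between -0.04 (without MitoPark 1) and 0.03 (without control 2), and was 0.01 with total count normalization. The number of members without overlap between groups, 0 as reported, was 1 with total count normalization (Timm10) and 0 to 4 when a mouse was left out. It was 3 without control 1 (14.1% of all genes tested), 2 without control 2 (10.2%), 4 without control 3 (13.3%), 4 without MitoPark 1 (12.6%), 4 without MitoPark 2 (21.2%) and 0 without MitoPark 3 (8.98%); with fewer mice, groups overlap less often by construction. Timm22 reversed its sign when a mouse was left out, from -0.0277 without MitoPark 1 to 0.12 without MitoPark 3, and the cause was not tested. Other named members moved by over 1.5 times without changing sign: Timm50 between -0.28 and -0.12, Timm10 between -0.20 and -0.10, Timm10b between -0.22 and -0.04, Pmpca between 0.04 and 0.14 and Dnajc19 between 0.00 and 0.15. Tomm6os, at 0.06 with all mice, also changed sign, from -0.09 without MitoPark 3 to 0.21 without MitoPark 2. So did other members near 0. With all mice 14 were higher and 17 lower, without control 1 these were 7 and 24, and without control 2 they were 18 and 13. All 3 SAM and all 5 TIM23 genes were lower without control 1. Once group means were removed, same-numbered mice correlated at 0.307, -0.0738 and 0.244 for replicates 1 to 3. The labels name no pairs, and whether same-numbered mice shared a litter or batch cannot be told. With a replicate block, the members' median log2 fold change was -0.0030, 0 members had an unadjusted p under 0.05 and the smallest was 0.163 (edgeR). Over all genes, calls then went from 84 to 126 and genes with an unadjusted p under 0.05 in edgeR from 161 to 323.

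With 3 mice a group, the 95% intervals of 20 of 31 members lay within 1.3-fold and those of 6 within 1.2-fold, and smaller changes were not bounded.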
